A study of Mus musculus with 8 samples.

Results

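Mitochondrial fusion and fission were followed through 10 genes, chosen by name and all found among the 18395 genes of the count table. They are the outer membrane mitofusins Mfn1 and Mfn2, the inner membrane dynamin Opa1, its proteases Oma1 and Yme1l1, the fission dynamin Dnm1l, and its outer membrane adaptors Mff, Fis1, Mief1 and Mief2. The data are RNA-seq counts of adipose tissue from mice, with 8 libraries, 4 labelled WT and 4 labelled KO, in which Kindlin-2 (encoded by Fermt2) had been removed from brown adipocytes. All mice of both groups had been kept at 4 °C for 6 hours. The labels name neither the depot, the driver of the deletion, nor the age or strain of the mice. The tissue is whole, so fewer cells of a type and less RNA per cell cannot be told apart. Whether replicates were separate animals is not in the labels, and each p-value therefore covers only the spread among these libraries, which may be technical.

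Mitochondria continually join and divide. Mfn1 and Mfn2 are GTPases that tether and fuse outer membranes, whereas Opa1 fuses inner membranes and shapes cristae, with the protease Yme1l1 and the stress-activated protease Oma1 cutting it into shorter forms. Dnm1l, also called Drp1, is a cytosolic GTPase that assembles into rings around the organelle after recruitment by Mff, Mief1, Mief2 and possibly Fis1. In brown adipocytes, adrenergic stimulation is known to activate Dnm1l by phosphorylation and to fragment the mitochondrial network, and Mfn2 also sits at contacts between mitochondria and lipid droplets. Protein cleavage and phosphorylation are not visible in mRNA counts.

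Levels are given as CPM, counts relative to the scaled library total. After cold and on this scale, 5 of the 10 genes lay lower in every KO library than in any WT library: Mfn2, Opa1, Oma1, Mff and Yme1l1. Among all 13901 genes tested, 7.56% separated in that direction, 5.8% in the other (0 of the 10 members) and 13.4% in either. Their KO means were 69.9%, 66.0%, 66.9%, 72.9% and 82.4% of the WT means, in that order. In the other 5 genes (Mfn1, Dnm1l, Fis1, Mief1 and Mief2) the groups overlapped, and the KO means were 96.3%, 101%, 106%, 95.2% and 90.8% of WT. The lower and overlapping genes thus each held fusion and fission members. By edgeR's quasi-likelihood test with Benjamini-Hochberg adjustment over all genes, 0 of the 10 passed a threshold of 0.05, and 0% of all genes did. At an unadjusted p under 0.05 the same 5 genes lay lower, against 11.1% of all genes (21.5% in either direction). At an adjusted p under 0.10, edgeR called Mfn2 and Mff and 1.79% of all genes. DESeq2 called 4 of the 10 (Mfn2, Opa1, Mff and Yme1l1), all lower, where it called 8.71% of all genes and 4.71% in that direction. Limma-voom called 0 members and 0 genes in all. At an unadjusted p under 0.05 it had the same count of 5 members, beside 2757 of all 13901 genes in either direction. With sample quality weights it called 3 (Mfn2, Mff and Yme1l1), all lower, against 6.55% of all genes and 3.62% in that direction.

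**Figure D1:**
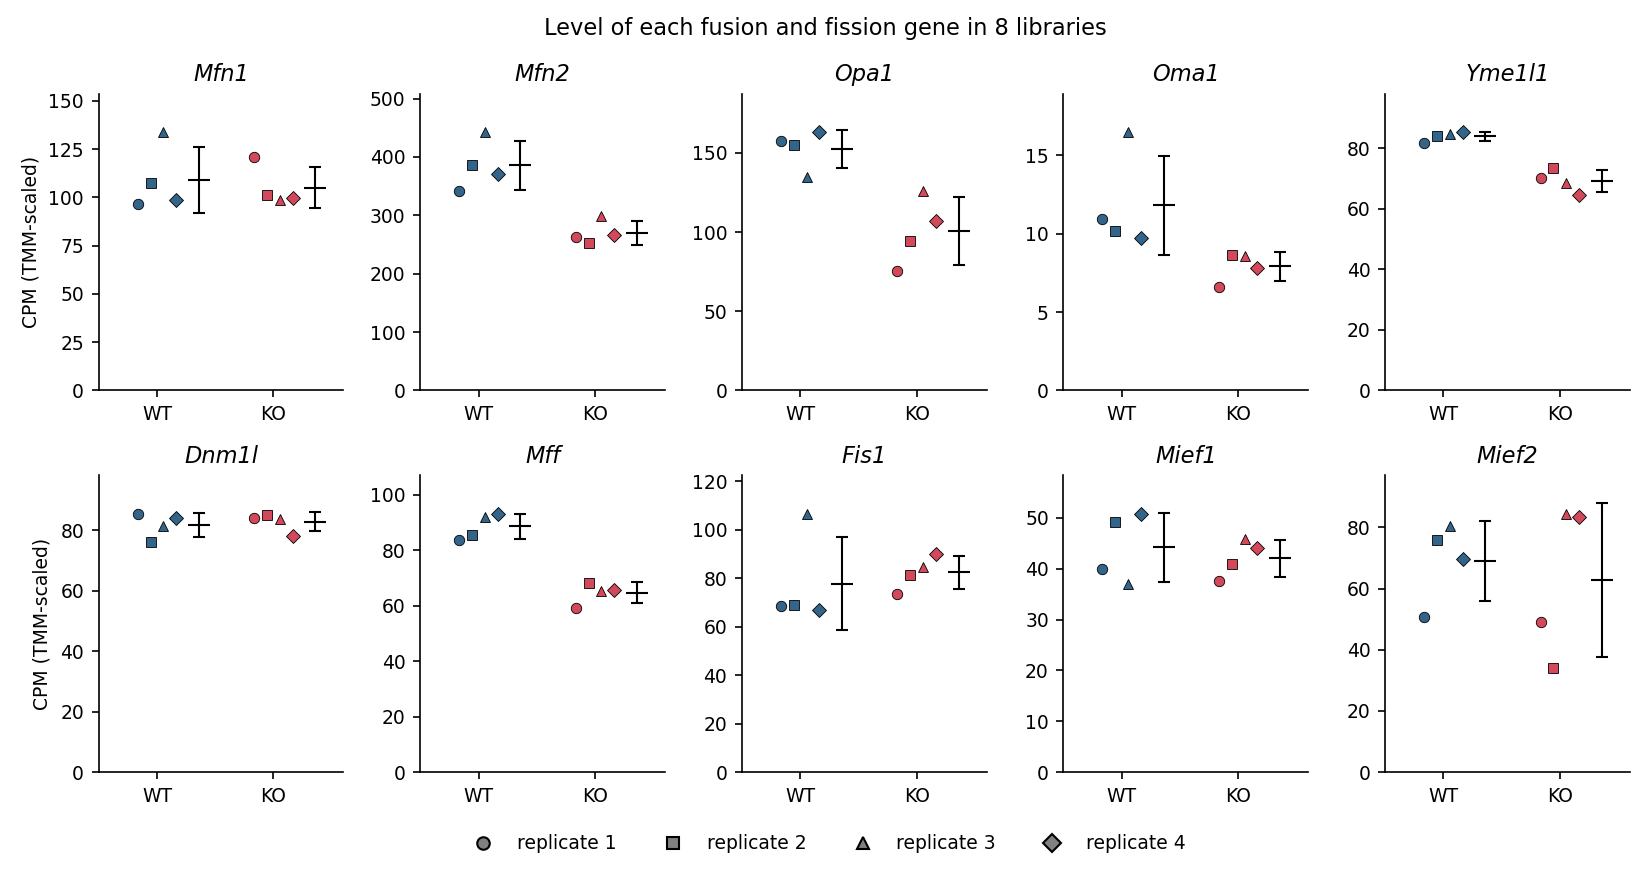
Level of each gene in CPM (y axis from 0) in WT and KO libraries. Symbols mark the replicate number, and bars show the group mean ± SD (n = 4). In Mfn2, Opa1, Oma1, Mff and Yme1l1 every KO point lies below every WT point on this scale.

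A pair of libraries stood apart, and the values that move most without them are also given for the other 6 libraries. In WT replicate 3, 12 skeletal muscle genes took 4.07% of counts, against 0.000451% to 0.0292% in the other 7 libraries. In KO replicate 2, 10 interferon response genes took 0.421%, against 0.0157% to 0.0331%, and 10 T and NK cell genes took 0.0188%, against 0.000333% to 0.00391%. Total counts were 33672272 to 43253559 in WT and 35734373 to 40927141 in KO. Fermt2, the targeted gene, had WT libraries at 201 to 244 CPM and KO libraries at 132 to 192 CPM, and differed by -0.45 ± 0.14 (log2 fold change ± SE, edgeR adjusted p = 0.134). In the 6 libraries its KO range was 173 to 192 CPM against 201 to 239 CPM in WT, and it differed by -0.32 (edgeR adjusted p = 0.159). All 8 brown adipocyte markers were detected, and 7 of them were lower in KO (6 in the 6 libraries). Their log2 fold changes ran from -1.26 to 0.34 with a median of -0.19. Their summed level was 8672 to 10672 CPM in the WT libraries against 5112 to 8450 CPM in the KO libraries. In the 6 libraries the sums were 10252 to 10672 CPM in WT and 6100 to 8450 CPM in KO. Ucp1, the brown fat uncoupling protein, had the highest mean of these markers and so weighed most in the sums. It lay between 5082 and 6576 CPM in WT and between 1792 and 4301 CPM in KO, and its lowest values in the 6 libraries were 6000 and 2879 CPM. Of 8 general adipocyte markers, 7 were lower in KO, with sums of 22942 to 26797 CPM against 18259 to 24111 CPM (25246 to 26797 and 19409 to 24111 CPM in the 6 libraries). All 10 endothelial markers were higher in KO, with sums between 1315 and 1789 CPM in WT libraries and between 1645 and 2921 CPM in KO libraries (1632 to 1789 and 2222 to 2921 CPM in the 6 libraries), and none was at 0. The 8 macrophage markers were all higher in KO with 8 libraries and 6 of 8 with 6 libraries, where their sums overlapped (185 to 291 CPM in WT, 222 to 334 CPM in KO). The 10 T and NK cell markers were all higher with 8 libraries and 9 of 10 with 6, where sums also overlapped (3.62 to 32.4 and 17.6 to 37.4 CPM). None of these adipocyte and immune markers was at 0 in all libraries. The part of these shifts in the results on fusion and fission genes was not tested.

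The upstream sequence of 6 genes is shown because they form the 3 pairs whose ratios separated the groups, as described further on. Each is the 250 bases before the start site that lies furthest upstream, from RefSeq on GRCm38.p6, read 5′ to 3′ on the gene's own strand. Capitals mark matches on either strand to the NRF1 motif (GCGCA, any base, then GCGC; NRF1 is a nuclear respiratory factor), CCGGAAG (a motif of the factor GABPA) or TGACG (the core of the cyclic AMP response element).
Mfn2 (chr4:147904910-147905159, minus strand): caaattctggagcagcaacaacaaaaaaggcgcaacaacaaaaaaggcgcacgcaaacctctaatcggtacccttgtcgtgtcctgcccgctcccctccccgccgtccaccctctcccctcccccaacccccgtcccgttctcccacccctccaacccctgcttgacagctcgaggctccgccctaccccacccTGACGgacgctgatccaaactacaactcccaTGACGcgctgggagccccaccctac
Mfn1 (chr3:32529232-32529481, plus strand): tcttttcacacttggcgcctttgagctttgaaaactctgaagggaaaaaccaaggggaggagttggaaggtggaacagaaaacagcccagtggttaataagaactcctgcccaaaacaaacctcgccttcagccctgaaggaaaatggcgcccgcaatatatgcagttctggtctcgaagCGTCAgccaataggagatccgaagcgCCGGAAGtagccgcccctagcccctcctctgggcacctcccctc
Opa1 (chr16:29579084-29579333, plus strand): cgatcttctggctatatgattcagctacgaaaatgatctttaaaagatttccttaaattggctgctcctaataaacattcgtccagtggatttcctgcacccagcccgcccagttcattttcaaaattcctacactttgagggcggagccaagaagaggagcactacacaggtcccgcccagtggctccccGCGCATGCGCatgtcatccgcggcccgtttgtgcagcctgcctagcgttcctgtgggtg
Dnm1l (chr16:16359032-16359281, minus strand): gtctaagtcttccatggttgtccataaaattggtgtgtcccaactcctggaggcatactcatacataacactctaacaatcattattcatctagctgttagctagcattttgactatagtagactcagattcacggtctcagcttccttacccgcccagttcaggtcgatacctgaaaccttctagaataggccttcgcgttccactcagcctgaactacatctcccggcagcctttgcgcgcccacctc
Mff (chr1:82724640-82724889, plus strand): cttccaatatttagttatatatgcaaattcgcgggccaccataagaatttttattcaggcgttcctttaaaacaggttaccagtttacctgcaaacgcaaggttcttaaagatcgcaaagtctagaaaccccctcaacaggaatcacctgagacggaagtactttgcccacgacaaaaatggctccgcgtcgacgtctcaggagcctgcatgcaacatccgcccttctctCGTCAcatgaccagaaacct
Fis1 (chr5:136953025-136953274, plus strand): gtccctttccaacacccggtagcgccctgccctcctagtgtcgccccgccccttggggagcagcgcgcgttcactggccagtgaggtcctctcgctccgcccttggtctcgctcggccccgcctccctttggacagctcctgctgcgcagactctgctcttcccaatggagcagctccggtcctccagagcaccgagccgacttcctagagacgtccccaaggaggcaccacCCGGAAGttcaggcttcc
Of 27025 genes with such windows, 4.23% held the NRF1 motif, and 2 of the 10 members did, Opa1 and Oma1. CCGGAAG was in 7.83% of genes and in 4 members, Mfn1, Fis1, Mief1 and Yme1l1. TGACG was in 19.8% of genes and in 5 members, Mff, Mfn1, Mfn2, Mief1 and Yme1l1. All windows of a gene were searched. TNAAGGTCA (an estrogen-related receptor motif), AGGTCA within it (the wider nuclear receptor motif), AAGATGGC (a YY1 motif) and TGACGTCA (the full cyclic AMP response element, which contains TGACG) were in 1.30%, 15.8%, 1.83% and 1.77% of genes and in 0 of the 10 members. A match is a run of letters and not evidence of binding.

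Of the mitofusins, only Mfn2 had groups that did not overlap. Mfn2 (ENSMUSG00000029020), which fuses outer membranes and also anchors mitochondria to other organelles, had 342, 386, 442 and 371 CPM in the WT replicates, numbered 1 to 4 throughout. The KO replicates, in the same order, had 262, 252, 299 and 266 CPM. The highest KO value lay below the lowest WT value. KO differed from WT by -0.52 ± 0.12 on the log2 scale (SE; unadjusted p = 0.00160, edgeR adjusted p = 0.0981). DESeq2 gave an adjusted p of 0.00303. The WT maximum came from the library rich in muscle transcripts, and without that library and KO replicate 2 the log2 fold change was -0.41 ± 0.12 (edgeR adjusted p = 0.0894).

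Mfn1 (ENSMUSG00000027668), the mitofusin with the stronger GTPase and tethering activity, was at 96.7, 107, 134 and 98.5 CPM in WT and at 121, 101, 98.7 and 99.4 CPM in KO. The groups overlapped, and WT replicate 3 and KO replicate 1 were the high libraries. Its log2 fold change was -0.05 ± 0.13, with a 95% interval from -0.35 to 0.24 (edgeR adjusted p = 0.833). The sign turned with upper-quartile factors, with scaling by total counts (0.21, beside a median of 0.26 for all genes) and without WT replicate 3 (0.06).

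Opa1 (ENSMUSG00000038084), the inner membrane fusion GTPase, was at 157, 155, 135 and 163 CPM in WT and at 75.2, 94.4, 126 and 107 CPM in KO. The gap between the groups was narrow, since KO replicate 3 reached 126 CPM and WT replicate 3 stood at 135 CPM. Its log2 fold change of -0.60 ± 0.16 had an edgeR adjusted p of 0.117 (0.00388 before adjustment). DESeq2 gave an adjusted p of 0.0173. In the 6 libraries without WT replicate 3 and KO replicate 2 it was -0.62 ± 0.18 (edgeR adjusted p = 0.0820). KO replicate 1 was the lowest, and the value without it was -0.49 ± 0.13.

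Both proteases that cut Opa1 lay lower in KO. Oma1 (ENSMUSG00000035069), the metalloprotease that acts under stress, was at 10.95, 10.2, 16.5 and 9.70 CPM in WT and at 6.61, 8.62, 8.58 and 7.81 CPM in KO. It had the fewest reads of the members, with 287 to 492 counts per library. Its log2 fold change was -0.58 ± 0.20 (edgeR adjusted p = 0.164), and it was -0.38 ± 0.16 without WT replicate 3, the library with the highest value. Yme1l1 (ENSMUSG00000026775), the constitutive protease of the inner membrane, was at 81.7, 83.9, 84.8 and 85.3 CPM in WT and at 70.1, 73.4, 68.6 and 64.6 CPM in KO. Its SD was 1.61 CPM in WT and 3.67 CPM in KO, and the difference of -0.28 ± 0.09 (edgeR adjusted p = 0.151) was the smallest among the 5 genes whose groups separated. DESeq2 gave Yme1l1 an adjusted p of 0.0494. With scaling by total counts its value was -0.02 ± 0.10, beside a median of 0.26 for all genes in that fit.

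The fission dynamin did not follow these genes. Dnm1l (ENSMUSG00000022789) was at 85.4, 76.2, 81.4 and 84.0 CPM in WT and at 83.9, 85.1, 83.8 and 78.2 CPM in KO. The groups covered nearly the same range. The log2 fold change was 0.02 ± 0.09, with a 95% interval from -0.19 to 0.22 (edgeR adjusted p = 0.924), and it was -0.01 without WT replicate 2. Under scaling by total counts it was 0.28 ± 0.10 (adjusted p = 0.0894), close to the 0.26 by which the median of all genes moved.

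Among the adaptors that recruit Dnm1l, only Mff had groups that did not overlap. Mff (ENSMUSG00000026150), the main outer membrane receptor for the dynamin, was at 83.8, 85.7, 92.0 and 93.1 CPM in WT and at 59.3, 68.2, 65.3 and 65.8 CPM in KO. Every KO library lay below the lowest WT library. It had the smallest p of the 10 genes, with a log2 fold change of -0.46 ± 0.10 (unadjusted p = 0.000860, edgeR adjusted p = 0.0981). DESeq2 gave an adjusted p of 0.00241. In the 6 libraries it was -0.46 ± 0.11 (edgeR adjusted p = 0.0520).

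Fis1 (ENSMUSG00000019054), a tail-anchored outer membrane protein first described as a fission receptor, was at 68.3, 68.8, 106 and 67.0 CPM in WT and at 73.6, 81.5, 84.5 and 90.0 CPM in KO. All 4 KO values exceeded those of WT replicates 1, 2 and 4, and all lay below WT replicate 3. The log2 fold change was 0.09 ± 0.16 (edgeR adjusted p = 0.783), and 0.27 ± 0.11 (unadjusted p = 0.0293, adjusted p = 0.229) without that library.

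Mief1 and Mief2 encode paralogous receptors that hold Dnm1l on the outer membrane. Mief1 (ENSMUSG00000022412) was at 39.9, 49.2, 37.0 and 50.8 CPM in WT and at 37.5, 40.9, 45.8 and 44.1 CPM in KO, within the WT range (log2 fold change -0.07 ± 0.13, edgeR adjusted p = 0.771). Its sign turned with scaling by total counts (0.18, beside a median of 0.26 for all genes). Mief2 (ENSMUSG00000018599) was at 50.7, 75.7, 80.3 and 69.6 CPM in WT and at 49.1, 34.1, 84.4 and 83.3 CPM in KO. The KO libraries fell into a low and a high pair, and the interval of the log2 fold change ran from -0.79 to 0.52 around -0.14 (edgeR adjusted p = 0.803). Without KO replicate 2 alone it was 0.07, and in the 6 libraries it was 0.15.

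**Figure D2:**
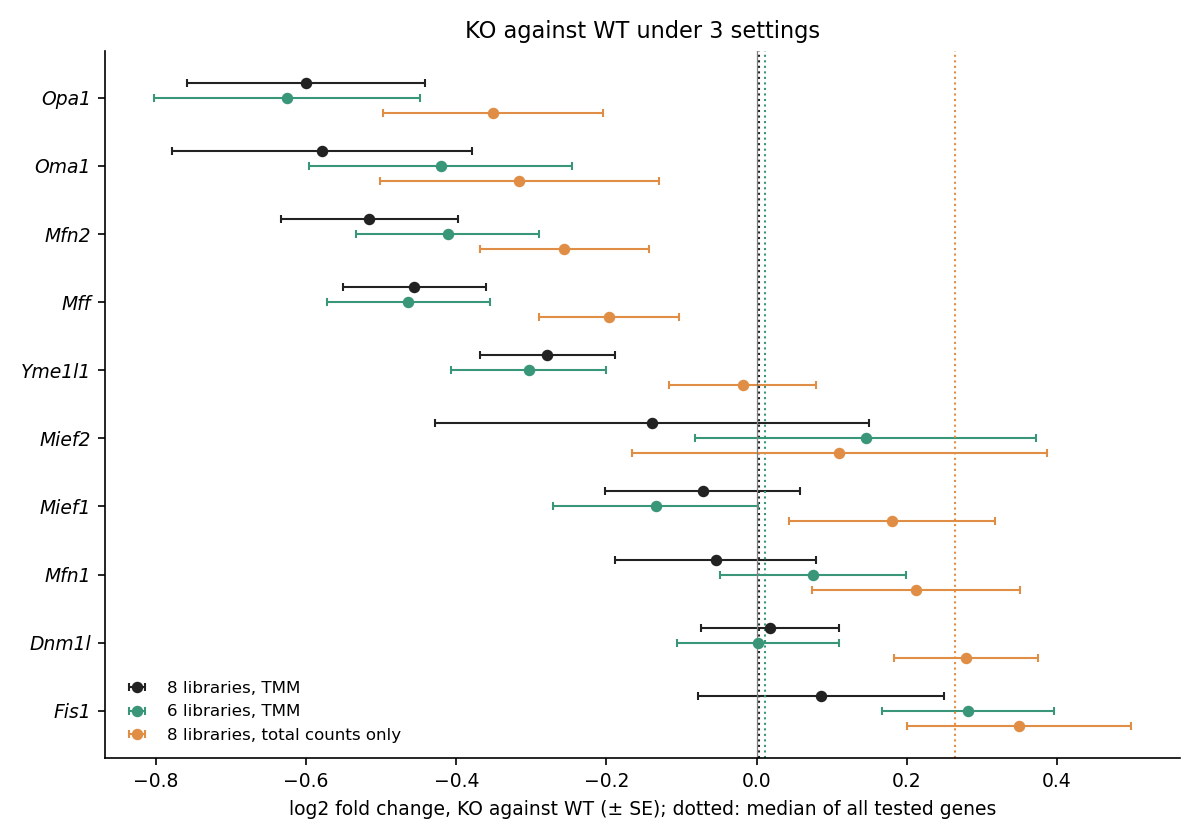
Log2 fold change of KO against WT with its SE for the 10 genes, from 8 libraries with TMM scaling, from 6 libraries (without WT replicate 3 and KO replicate 2), and from 8 libraries scaled by total counts. Dotted lines give the median of all tested genes in the same fit, which lies at 0.26 under total counts. Between the fits of 8 libraries the whole set moves with the scaling, from a members' median of -0.21 to 0.05.

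As a list, 8 of the 10 genes had a log2 fold change below 0, with a median of -0.21, against 49.5% of all tested genes and a median of 0.0036. Under scaling by total counts 5 of 10 lay below 0 with a median of 0.05, while the median of all genes was 0.26. A change of scaling moves all genes by nearly the same amount, so the distance of the members from all genes could hardly differ between these scalings. In the 6-library comparison, edgeR called 0 of the 10 members and 3.32% of all genes (1.5% lower). There 6 of 10 members lay below 0, beside 48.9% of all genes. Of the members, 6 had an unadjusted p under 0.05 in that comparison, as did 3209 of 13901 genes in either direction. They were the same 5 lower genes (11.4% of all genes lay lower at that p) and Fis1, which was higher (0.28 ± 0.11, adjusted p = 0.181).

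Ratios between members of 1 library do not depend on its scaling, so 5 pairs were compared by the exact two-sided permutation test over the 70 splits of 8 libraries, with adjustment over the 5 pairs. The smallest p this test can give is 0.0286. The pairs were chosen with earlier results of these data known, so their p-values are no independent support for the differences of the single genes. The log2 ratio of Mfn2 to Mfn1 was 1.82, 1.85, 1.73 and 1.91 in WT and 1.12, 1.31, 1.596 and 1.42 in KO. All KO ratios lay below all WT ratios, a difference of -0.46 between the means (p = 0.0286, adjusted 0.0476, exact permutation test). The log2 ratio of Opa1 to Dnm1l fell by 0.64, from 0.90 ± 0.13 in WT to 0.26 ± 0.33 in KO (SD, n = 4; exact permutation p = 0.0286, adjusted 0.0476). KO replicate 1 was the only library in which Opa1 had fewer counts than Dnm1l.

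The log2 ratio of Mff to Fis1 was 0.29, 0.32, -0.21 and 0.47 in WT and -0.31, -0.26, -0.37 and -0.45 in KO. The groups separated here too (difference -0.57, exact permutation p = 0.0286, adjusted 0.0476), although WT replicate 3, at -0.21, lay next to KO replicate 2, at -0.26. The ratio of Oma1 to Yme1l1 differed by -0.27 (exact permutation p = 0.257, adjusted 0.321) and that of Mief1 to Mief2 by 0.15 (p = 0.686, adjusted 0.686), with overlapping groups in both. Such separation is common for these genes: the ratio of Mfn2 to each of the 13900 other tested genes had all KO below all WT in 38.5% of cases and groups apart in either direction in 38.7%. For Opa1 these shares were 37.8% and 37.9%, for Mff 35.9% and 36.2%, for Oma1 30.4% and 30.5%, and for Mief1 4.99% and 9.29%. With a library left out, or with the replicate number as a block, the test cannot reach 0.05.

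**Figure D3:**
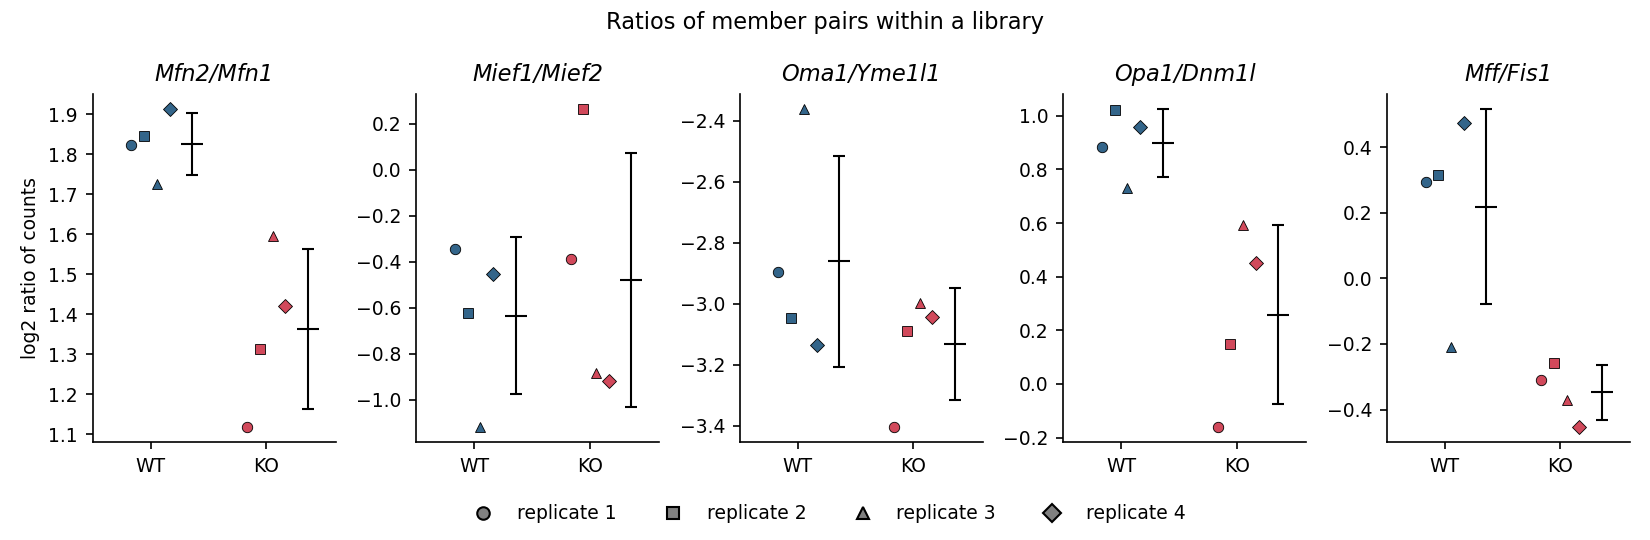
Log2 ratio of counts of 2 genes within each library, for 5 pairs, with the group mean ± SD (n = 4) and a y axis of its own in each panel. The KO points lie below all WT points for Mfn2 to Mfn1, Opa1 to Dnm1l and Mff to Fis1, and overlap with WT in the other 2 pairs.

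Levels of different genes were compared per kilobase of merged exons from GENCODE M21. In WT, Mfn2 was the most abundant, at 74.2 ± 8.10 CPM per kb, followed by Fis1 at 45.3 ± 11.2 CPM per kb (SD, n = 4), with no overlap between the libraries of these genes. Mief2, Opa1 and Mfn1 came next at 25.4, 19.4 and 17.8 CPM per kb, and each overlapped its neighbour in this order, as did Mfn1 and Dnm1l (15.7 CPM per kb). Yme1l1 (10.5), Mff (9.09), Oma1 (5.51) and Mief1 (5.46 CPM per kb) were the least abundant, and Oma1 and Mief1 overlapped. In KO, Mfn2 stood at 51.9 ± 3.88 and Fis1 at 48.1 ± 4.005 CPM per kb, and their libraries overlapped. Opa1, at 12.8 ± 2.72 CPM per kb in KO, had a lower mean than Mfn1 (17.2) and Dnm1l (15.9 CPM per kb), but its libraries, at 9.54 to 16.03 CPM per kb, overlapped those of Dnm1l, at 15.0 to 16.4 CPM per kb. Merged exons count every annotated isoform, so genes with long rare exons are understated.

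Other genes of mitochondrial shape were taken from 6 lists of 49 genes, of which 48 were tested. At an unadjusted p under 0.05, 14 lay lower in KO (11.1% of all genes did) and 1 higher. After adjustment over all genes edgeR called 0, whereas DESeq2 and limma-voom with quality weights each called 7 (Inf2 higher, 6 lower), beside 8.71% and 6.55% of all genes. In the 6 libraries edgeR called 2 of the 48 (Apoo lower and Inf2 higher), beside 3.32% of all genes. Of the 48, 42 lay below 0 (39 in the 6 libraries), against 49.5% of all genes (48.9% in the 6 libraries). In 10 of them all KO libraries were below all WT libraries, against 7.56% of all genes. The proteins that build crista junctions (MICOS and its partners) had 8 of 8 genes below 0 with a median of -0.34. Apoo, a MICOS subunit, was at 103 to 124 CPM in WT and 57.6 to 79.9 CPM in KO (-0.67 ± 0.13, edgeR adjusted p = 0.0915), and was called in the 6-library comparison (-0.73 ± 0.15, adjusted p = 0.0379). Immt, the MICOS core protein mitofilin, differed by -0.53 ± 0.12 (adjusted p = 0.0981), and Apool by -0.51 ± 0.12 (adjusted p = 0.102).

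Inner membrane proteases and prohibitins lay below 0 in 9 of 9 cases, with a median of -0.27. The prohibitin Phb2, which scaffolds Opa1 and its proteases, differed by -0.27 ± 0.11 (edgeR adjusted p = 0.213). The matrix protease Lonp1 and the protease Afg3l2 differed by -0.32 ± 0.13 each (adjusted p = 0.202 and 0.213). Regulators that tag outer membrane proteins with ubiquitin had 4 of 5 below 0. Pink1, the kinase that starts mitophagy, was at 340, 397, 603 and 349 CPM in WT and 244 to 279 CPM in KO (-0.69 ± 0.19, adjusted p = 0.118), and its value in the 6 libraries was -0.47 ± 0.12. The ubiquitin ligases Marchf5 and Mul1 differed by -0.31 ± 0.14 and -0.21 ± 0.13 (adjusted p = 0.234 and 0.356).

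Of 12 other fission factors tested, 9 lay below 0. Inf2, a formin that builds actin at fission sites, had the largest positive value among the 3 that lay above 0 (the others were Dnm2 at 0.11 and Senp5 at 0.04, named after their values were seen). It was at 50.8 to 80.0 CPM in WT and at 168, 69.4, 111 and 129 CPM in KO replicates 1 to 4 (0.76 ± 0.26, edgeR adjusted p = 0.160). KO replicate 2 overlapped with WT, and in the 6 libraries Inf2 was called higher (0.82 ± 0.16, adjusted p = 0.0361), as part of the 3.32% of all genes called there. Mtfr1, a fission regulator, differed by -0.44 ± 0.12 and Ppp3cb, a catalytic subunit of calcineurin, which activates Dnm1l, by -0.51 ± 0.20 (adjusted p = 0.118 and 0.191). Without WT replicate 3 and KO replicate 2, the value of Ppp3cb was -0.26.

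Other fusion and outer membrane factors lay below 0 in 7 of 9 cases (median -0.21), among them the outer membrane carrier Slc25a46 at -0.33 ± 0.15, Stoml2 at -0.21 ± 0.10 and Mtch2 at -0.28 ± 0.14 (edgeR adjusted p = 0.224, 0.243 and 0.265). The transport genes, which link mitochondria to microtubule motors, lay below 0 in 5 of 5 cases with a median of -0.13. Their smallest p belonged to Rhot1, the outer membrane GTPase Miro1, at -0.25 ± 0.11 (adjusted p = 0.209), followed by the adaptor Trak1 at -0.26 ± 0.14 and the motor Kif5b at -0.13 ± 0.16 (adjusted p = 0.304 and 0.649). In the 6 libraries 3 of 5 lay below 0 with a median of -0.06, Trak1 at -0.09 and Kif5b at 0.08.

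**Figure D4:**
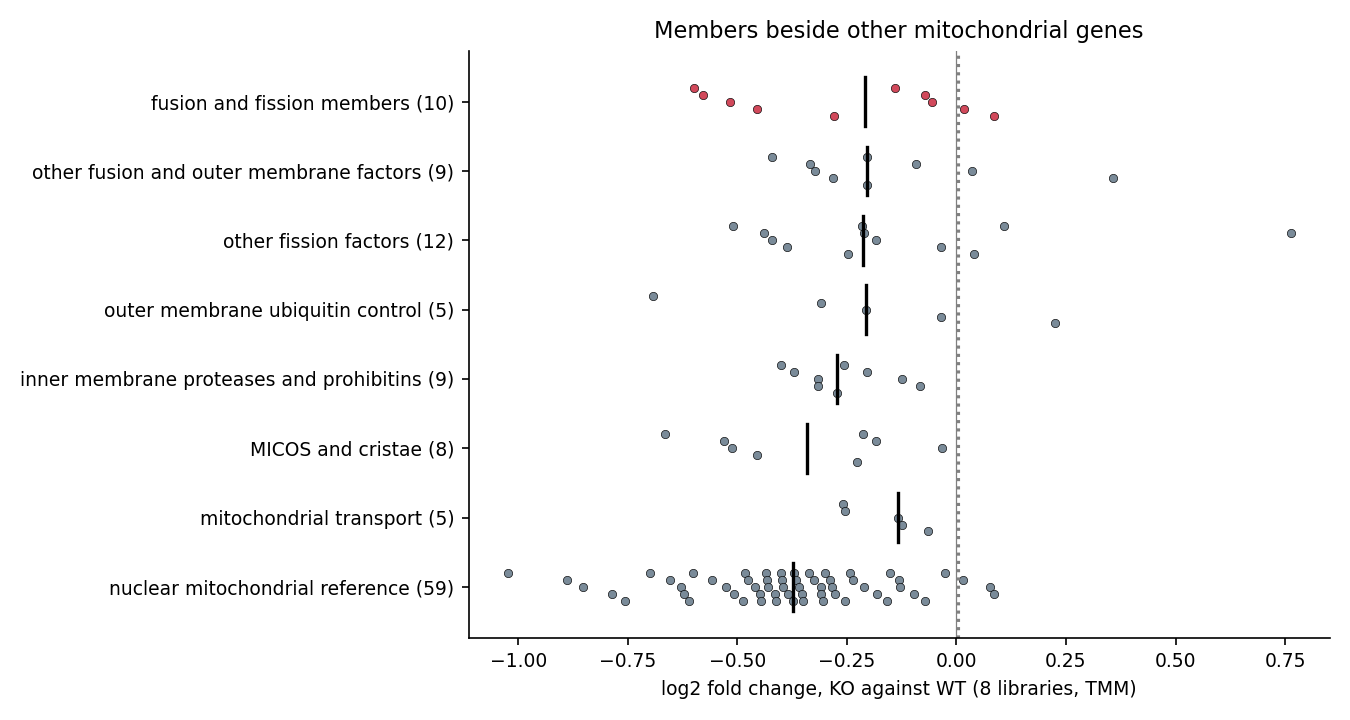
Log2 fold change of KO against WT for each tested gene (points) in the 10 members, 6 lists of other mitochondrial dynamics genes and 59 nuclear genes of mitochondrial proteins, with list medians as vertical bars and the number of tested genes in brackets. The 10 members are spread from -0.60 to 0.09 around a median of -0.21, beside a median of -0.37 for the 59 nuclear genes.

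The lower members were set against mitochondrial genes at large through 59 nuclear genes for respiratory subunits, tricarboxylic acid cycle enzymes, porins, import, chaperones and the mitochondrial DNA factor Tfam. Of these, 56 lay below 0 with a median of -0.37, and 30 had all KO libraries below all WT libraries, beside 49.5% and 7.56% of all tested genes. When libraries were scaled to the summed counts of those 59 genes, edgeR called 0 of the 10 members and 21% of all genes, and the median of all genes was 0.43. On that scale Mff, Mfn2, Oma1 and Opa1 differed by -0.04 ± 0.13, -0.10 ± 0.15, -0.19 ± 0.24 and -0.20 ± 0.13 (edgeR adjusted p from 0.259 to 0.827). Dnm1l, Fis1, Mfn1 and Mief1 lay higher, by 0.44 ± 0.15, 0.48 ± 0.21, 0.37 ± 0.20 and 0.35 ± 0.12 (adjusted p = 0.0598, 0.113, 0.187 and 0.0565), while Yme1l1 was at 0.14 ± 0.14 and Mief2 at 0.25 ± 0.27 (adjusted p = 0.457 and 0.477). Transcripts of mitochondrial DNA made up 19.9% to 25.6% of a WT library and 15.1% to 18.2% of a KO library.

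Genes whose log2 CPM followed a member most closely over the 8 libraries were sought among the 9001 others whose log2 CPM averaged 3 or more. For Mfn2 they were Bsg, Adipor1 and N6amt1 (Pearson r 0.989, 0.982 and 0.982). Bsg encodes basigin, a partner of monocarboxylate transporters, and Adipor1 an adiponectin receptor. For Opa1 they were Dnaja3, a mitochondrial chaperone, AW209491, and Acadm, the medium-chain acyl-CoA dehydrogenase (r = 0.996, 0.992 and 0.983). For Dnm1l they were Rab3gap1, Ogfrl1 and Pikfyve (r = 0.939, 0.938 and 0.930). The libraries share the split between WT and KO and their scaling, so these coefficients are given as a description.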

How the data were processed

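Counts per gene for 8 libraries were deposited by the authors as whole numbers, without normalization. Polyadenylated RNA was captured and the second strand marked with dUTP, per the labels' protocols, and reads were placed on GRCm39 (build per the submitters' processing notes). Aligner, counter and strand setting were not given in the sources used here. GENCODE M21 supplied symbols for 18321 of 18395 genes. Members, lists and pairs were chosen with earlier results of these data known.

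Genes were kept by filterByExpr (13901), scaled with TMM (trimmed mean of M values; factors 0.914 ± 0.0288 in WT and 1.09 ± 0.0447 in KO, SD, n = 4) and tested by edgeR 4.0.16 in R 4.3.3 (robust quasi-likelihood F test, group only, Benjamini-Hochberg over all tested genes, threshold 0.05). CPM use TMM-scaled library sizes. Each standard error is the fold change (log2) divided by the root of F. Pair ratios add 0.5 to each count and were tested with SciPy 1.17.1. Alternatives were other scalings, filters, a 0.10 threshold, DESeq2 1.42.0, limma 3.58.1, a fit that is not robust, a replicate block, removal of mitochondrially encoded or muscle genes, each library left out, and 6 libraries. Tests were checked on simulated counts, where the comparison of 8 libraries missed most of the smaller changes. All 10 members, Fermt2 and Ucp1 were named, with up to 3 genes of smallest p per list of dynamics genes, the closest 3 genes by Pearson r for Mfn2, Opa1 and Dnm1l (log2 CPM, prior count 2), and the most abundant gene of a marker list where described. Lengths and sequences are on GRCm38. By GENCODE M21, Dnm1l, Mff and Mief1 share 4.67%, 2.00% and 2.63% of their exon bases with another gene. Figures were drawn with matplotlib 3.10.9.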

Additional observations from a re-analysis of the deposited data

Results flagged for a closer look

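Among 30 sets of 4 values (each member and each pair ratio in each group), 2 held a library whose gap to the nearest other value exceeded the 95% critical value of Dixon's test, and chance flags about 1 set in 20. Fis1 in WT was at 106 CPM in replicate 3 against 68.8 CPM in the next library. Mfn1 in KO was at 121 CPM in replicate 1 against 101 CPM in the next library.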

How the results depend on the processing

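Mfn2, Opa1, Mff and Oma1 lay lower, and Fis1 higher, in KO under all 22 alternatives each, with ranges of -0.58 to -0.10, -0.74 to -0.20, -0.48 to -0.04, -0.66 to -0.19 and 0.02 to 0.48. The alternatives reuse the same libraries, so a constant sign is no independent support. Fis1 and Oma1 were called under none of them (smallest adjusted p of these fits 0.113 and 0.0749). Yme1l1 was lower except when scaled to nuclear mitochondrial genes (0.14). That scaling gave 4 members lower with a median of 0.20, beside 14.3% of all genes lower and a median of 0.43. It put Mfn1 at 0.37, Mief1 at 0.35 and Mief2 at 0.25. It called 2920 genes (21% of those tested, 2898 higher and 22 lower). Of 48 other dynamics genes it called 2 (Inf2 and Dnm2, both higher). With total library size 5 members were lower with a median of 0.046, beside a median of 0.26 for all genes. That setting called 882 genes (858 higher and 24 lower) and put Mfn1, Mief1 and Mief2 at 0.21, 0.18 and 0.11. Upper-quartile factors put Mfn1 at 0.0012.

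DESeq2 called 1113 genes, 4 members and 7 other dynamics genes; limma-voom with quality weights called 911, 3 and 7, with Mief2 at 0.15. The 6 libraries gave 461 genes, 2 other dynamics genes, Mfn1 at 0.076, Mief2 at 0.15 and Mief1 to Mief2 at -0.25. Without a filter 1 gene was called (Cyp1a1, higher, chosen after its value was seen). An adjusted p under 0.10 gave 249 genes and 2 members (Mfn2 and Mff).

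With each library left out, edgeR called 0 to 361 genes (361 without KO replicate 2), 0 to 3 other dynamics genes and 0 members. Ranges were -0.015 to 0.044 for Dnm1l (below 0 without WT replicate 2), -0.13 to 0.057 for Mfn1 (above 0 without WT replicate 3), -0.15 to 0.00084 for Mief1 (above 0 without WT replicate 4), -0.32 to 0.065 for Mief2 (above 0 without KO replicate 2), and -0.094 to 0.30 for Mief1 to Mief2 (-0.094 without KO replicate 2 and -0.0069 without WT replicate 3). By the smaller number of splits, 0 pairs passed with a library left out, with 6 libraries or with the replicate block, against 3 with all libraries. The 3 differences stayed below 0, from -0.54 to -0.38 for Mfn2 to Mfn1, -0.75 to -0.50 for Opa1 to Dnm1l and -0.74 to -0.48 for Mff to Fis1.

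Replicate numbers were not shown to pair libraries: deviations of same-numbered libraries correlated at -0.05, 0.04, -0.13 and 0.22, and 3 of 8 libraries correlated best with their own number. The replicate block called 0 genes, 0 members and 0 other dynamics genes, and gave 8 members lower with a median of -0.24. Apart from the values named, the cause of each change was not tested.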
